A study of Lycium barbarum and Lycium ruthenicum with 30 samples.

Results

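The 4 unigenes described here are transcripts assembled from wolfberry fruit that the study's pathway lists place in zeatin biosynthesis or in plant hormone signal transduction, out of 326276 unigenes in the table. TRINITY_DN70125_c0_g3 was listed under zeatin biosynthesis, and TRINITY_DN96146_c3_g3, TRINITY_DN89415_c0_g1 and TRINITY_DN68385_c5_g2 were listed under hormone signal transduction. The first 3 came from lists chosen for changes between fruit stages of red wolfberry, Lycium barbarum (LB), and the last from a list chosen for changes between stages of black wolfberry, L. ruthenicum (LR). The members were thus chosen by their FPKM changes between stages in the species of the list, which are given here without a test, while their courses in the other species did not enter the lists. All 4 passed the filter, a level of 1 FPKM (fragments mapped to a transcript, divided by its length and by library size) in 3 or more of 30 libraries, as did 111217 unigenes in all. TRINITY_DN68385_c5_g2 passed it only through the 3 LR libraries of the youngest stage.

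Fruit of wild LR shrubs and of LB shrubs from a watered nursery at another place was taken at the young (S1), green (S2), colouring (S3), immature (S4) and mature (S5) stage. Each of the 10 groups had 3 libraries from different trees, and no treatment was applied. Wherever LR is set against LB, the effects of species, growing place and water supply cannot be told apart. The sources conflict on the species of a library, since the sample titles and the study's key to the column codes are opposite. The key was followed here: of 210 values printed in the supplement for 7 unigenes, 210 equalled the column assigned by the key and 6 the column assigned by the title, within 0.005 FPKM. By the key, the unigene of chalcone synthase, which opens the flavonoid pathway to the black pigments, stood at 3410 FPKM in LR and 39.3 FPKM in LB at S5 (means, n = 3 each).

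Zeatin is a cytokinin, a plant hormone made by adding an isoprenoid side chain to adenine nucleotides, hydroxylating the chain and releasing the free base. Cytokinin oxidases break it down and glucosyltransferases store it as conjugates, and in young fruit cytokinins are known for promoting cell division. The pathway map of hormone signal transduction runs from the receptors of auxin, cytokinin, gibberellin, abscisic acid, ethylene, brassinosteroid, jasmonate and salicylic acid to the transcription factors and response genes at their ends. Abscisic acid is known as a promoter of ripening in fruit that does not depend on a burst of ethylene. The sources used here give the pathway of each of the 4 unigenes but no enzyme, receptor or other gene name, so no step is assigned to any of them.

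The 30 libraries differed in scale: median-of-ratios factors over 37527 unigenes ran from -1.27 (LR4-3, the third LR library of S4) to 0.61 (LB1-3) on the log2 scale. Green-tissue RNA moved with stage in both species, and the summed FPKM of 36 photosynthesis unigenes had medians of 9234.5, 5019.9, 1511.5, 559.8 and 385.5 from S1 to S5 in LR and of 10022.7, 11046.4, 2237.6, 872.3 and 1692.7 in LB. Their part in the results below was not tested. In whole fruit, fewer cells of a type and less RNA per cell cannot be told apart.

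**Figure D1:**
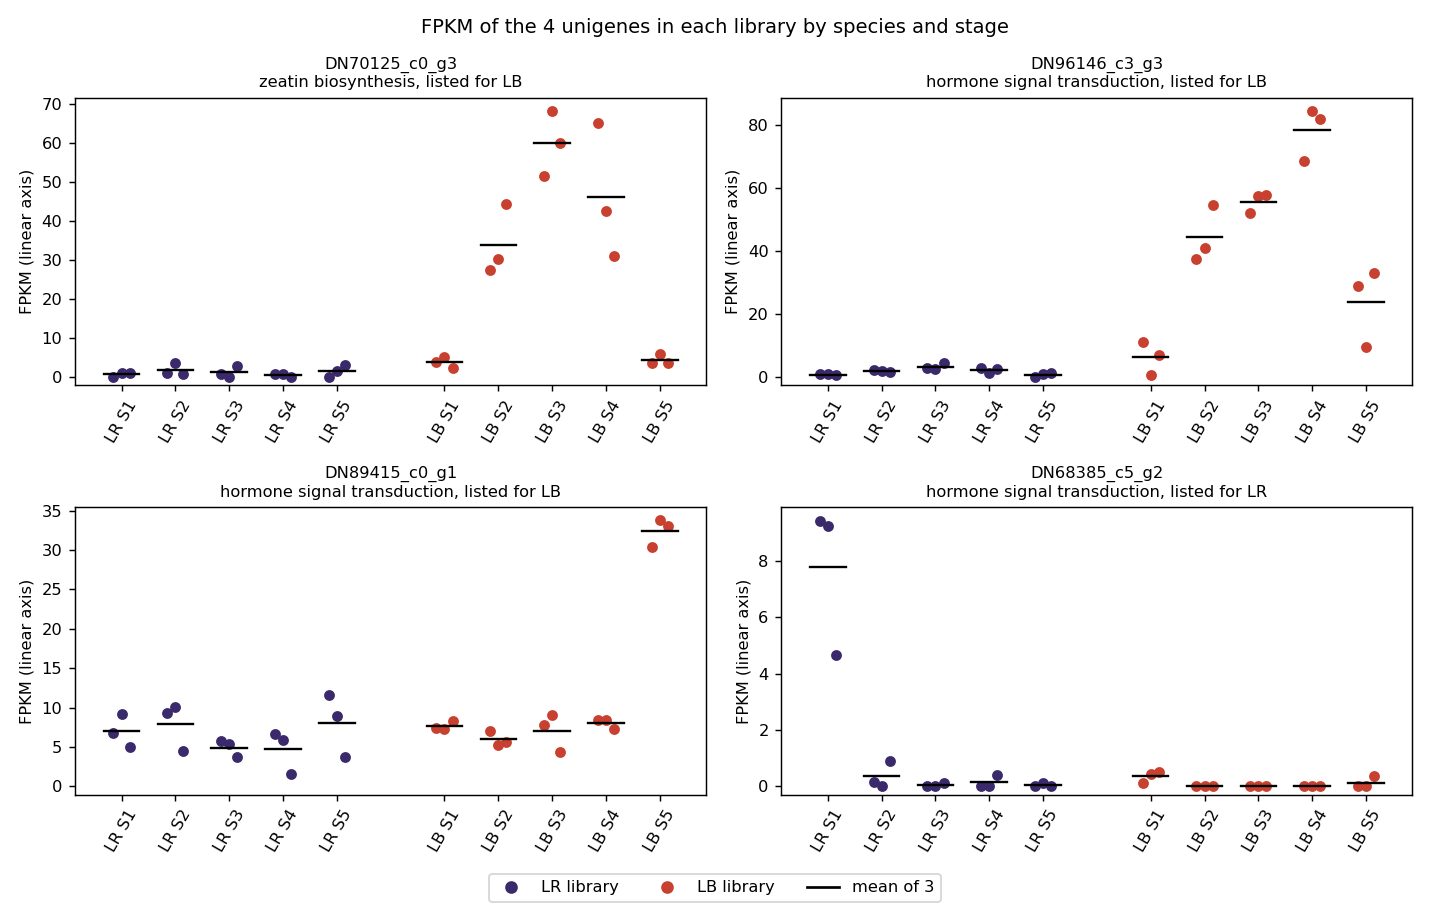
FPKM of each of the 4 unigenes in the 30 libraries, by species (LR left, LB right) and stage S1 to S5; each point is a library and each bar the mean of 3. DN70125_c0_g3 and DN96146_c3_g3 stand above 27 FPKM only in LB libraries, DN89415_c0_g1 stands above 30 FPKM only in the LB S5 libraries, and DN68385_c5_g2 stands above 4 FPKM only in the LR S1 libraries.

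The zeatin biosynthesis unigene TRINITY_DN70125_c0_g3 was near the limit of detection in LR fruit and abundant in the middle stages of LB fruit. LR fruit held it at 0.00, 0.98 and 0.90 FPKM at S1, at 0.99, 3.56 and 0.83 FPKM at S2, at 0.76, 0.00 and 2.79 FPKM at S3, at 0.69, 0.62 and 0.00 FPKM at S4, and at 0.00, 1.46 and 3.12 FPKM at S5. These values overlapped between the stages, apart from S4 against S2, and 4 of the 15 LR libraries were listed at 0. Of the 11 LR values above 0, the lowest 7 ran from 0.62 to 0.99 FPKM and were all 1.0 times a common step once each was divided by the relative depth of its library. That depth was read from the table as the most common ratio between libraries among 52689 sparse unigenes. On the same scale the LR maximum was 6.1 steps, while the LB libraries ran from 4.1 to 111.4 steps. If the step is a single fragment, which the table does not state, the LR level rests on at most a few fragments per library.

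None of the 10 stage pairs of LR passed the thresholds for TRINITY_DN70125_c0_g3 (2-fold and an adjusted p under 0.01 by limma), and none had an unadjusted p under 0.05. Over all tested unigenes, the share called in either direction in LR was 0.466% for S2 against S1, 6.69% for S3 against S1, 11% for S4 against S1, 8.37% for S5 against S1, 2.01% for S3 against S2, 6.73% for S4 against S2, 6.59% for S5 against S2, 0.0548% for S4 against S3, 3% for S5 against S3 and 2.55% for S5 against S4. The log2 differences ran from -1.20 to 0.99, with adjusted p from 0.25 to 1 (limma). For S3 against S1, the pair in which LB means differed most, the LR difference was 0.33 with a 95% interval from -1 to 1.67 on the log2(FPKM + 0.5) scale.

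LB fruit held TRINITY_DN70125_c0_g3 at 3.78, 5.00 and 2.39 FPKM at S1, at 27.43, 30.17 and 44.38 FPKM at S2, at 51.63, 68.26 and 60.07 FPKM at S3, at 65.24, 42.62 and 31.01 FPKM at S4, and at 3.60, 5.96 and 3.51 FPKM at S5. Every LB library of S2, S3 and S4 lay above every LB library of S1 and S5, and S3 overlapped with S4 and S4 with S2. The LB means were 3.72 ± 1.31, 34 ± 9.10, 60 ± 8.32, 46.3 ± 17.4 and 4.36 ± 1.39 FPKM from S1 to S5 (SD, n = 3 each). The LB S3 mean was 16.1 times that of S1, and it exceeded the S3 means of 94.5% of the tested unigenes. By S5 the mean was 13.8 times below that of S3 and overlapped with S1.

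The hormone signal transduction unigene TRINITY_DN96146_c3_g3 also had its highest levels in LB fruit, at the middle and late stages. In LR the level of TRINITY_DN96146_c3_g3 was low but above 0 in all 15 libraries. It stood at 0.81, 0.81 and 0.61 FPKM at S1, at 2.02, 1.87 and 1.49 FPKM at S2, at 2.80, 2.43 and 4.32 FPKM at S3, at 2.66, 1.16 and 2.61 FPKM at S4, and at 0.10, 1.00 and 1.12 FPKM at S5. The S3 libraries lay above those of S1, S2 and S5 without overlap. The share of all tested unigenes without overlap was not computed, so nothing is read from that. None of the 10 stage pairs passed the thresholds, and 2 had an unadjusted p under 0.05. These were S3 against S1, 3.18 ± 1.00 and 0.743 ± 0.115 FPKM (log2 difference 1.54, SE 0.58, adjusted p = 0.086), and S5 against S3, 0.740 ± 0.557 and 3.18 ± 1.00 FPKM (log2 difference -1.67, SE 0.58, adjusted p = 0.078; SD, n = 3, limma).

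LB libraries held TRINITY_DN96146_c3_g3 at 11.16, 0.58 and 6.94 FPKM at S1, 37.34, 40.97 and 54.40 FPKM at S2, 52.01, 57.23 and 57.63 FPKM at S3, 68.60, 84.28 and 81.73 FPKM at S4, and 28.79, 9.53 and 32.94 FPKM at S5. The 3 LB libraries of S4 were the highest of all 30, and those of S5 lay below those of S2 without overlap. LB1-2 stood apart within S1, at 0.58 FPKM against 11.16 and 6.94 FPKM in its group. The LB means were 6.23 ± 5.33, 44.2 ± 8.99, 55.6 ± 3.14, 78.2 ± 8.41 and 23.8 ± 12.5 FPKM from S1 to S5 (SD, n = 3 each), and the S4 mean was 12.6 times that of S1. The LR course had its highest mean at S3 and the LB course at S4, but whether the courses differ was not tested, since the LB course chose the unigene.

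The second hormone signal transduction unigene of the LB lists, TRINITY_DN89415_c0_g1, set the mature LB fruit apart from all other groups. LR libraries held TRINITY_DN89415_c0_g1 at 6.83, 9.14 and 4.96 FPKM at S1, at 9.31, 10.12 and 4.49 FPKM at S2, at 5.72, 5.36 and 3.70 FPKM at S3, at 6.66, 5.88 and 1.52 FPKM at S4, and at 11.54, 8.98 and 3.69 FPKM at S5. The LR stages overlapped with each other, and the third library was the lowest at each of the 5 stages. None of the 10 pairs passed the thresholds or had an unadjusted p under 0.05, with log2 differences from -0.83 to 0.79. For the step at which the LB level was 4.04 times higher, S5 against S4, LR had 8.07 ± 4.00 and 4.69 ± 2.77 FPKM (SD, n = 3), a log2 difference of 0.79 with a 95% interval from -0.06 to 1.64 (limma, adjusted p = 0.26).

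LB libraries held TRINITY_DN89415_c0_g1 at 7.38, 7.24 and 8.27 FPKM at S1, 7.01, 5.26 and 5.62 FPKM at S2, 7.79, 9.07 and 4.34 FPKM at S3, 8.36, 8.36 and 7.34 FPKM at S4, and 30.38, 33.78 and 33.03 FPKM at S5. The S5 mean of 32.4 ± 1.79 FPKM was 4.04 times the S4 mean of 8.02 ± 0.589 FPKM (SD, n = 3 each), and the LB stages before S5 overlapped with each other except for S2, which lay below S1 and S4.

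Over these 3 unigenes, 0 of 30 LR stage pairs passed the thresholds and 2 had an unadjusted p under 0.05 (limma). With background shares of 0.0548% to 11%, a count of 0 is close to the background and nothing is read from it.

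**Figure D2:**
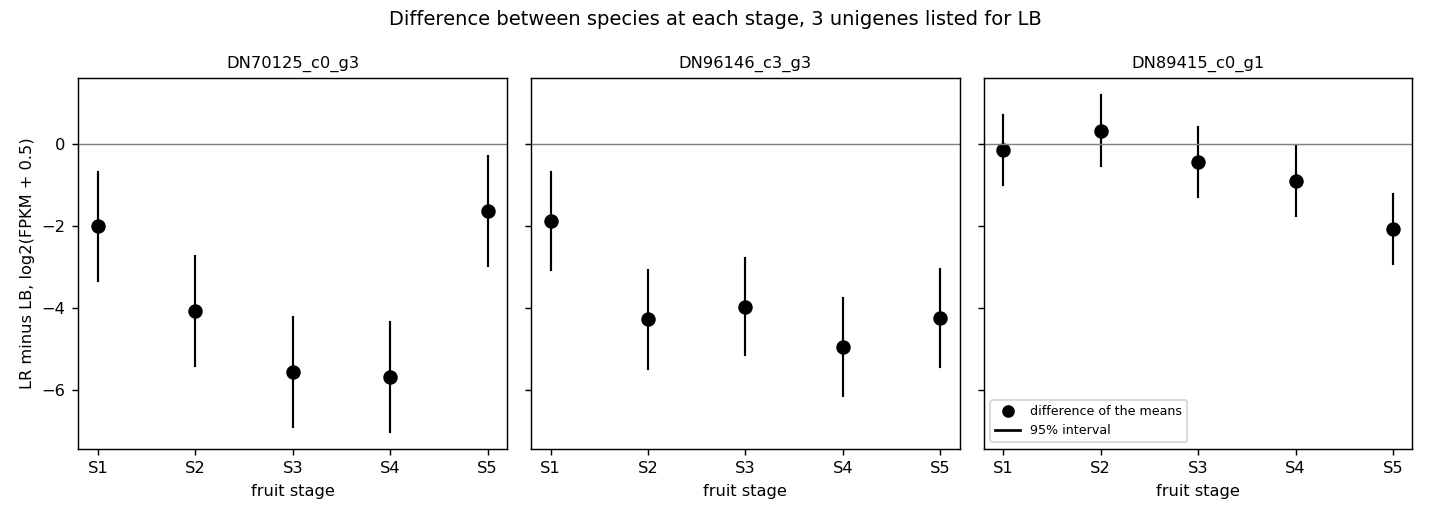
LR minus LB difference on the log2(FPKM + 0.5) scale at stages S1 to S5 for the 3 unigenes listed for LB, with the 95% interval of the limma fit as a line. The intervals are not read as a test, since the LB libraries chose the unigenes. DN70125_c0_g3 reaches -5.68 at S4, DN96146_c3_g3 lies between -3.96 and -4.95 from S2 to S5, and DN89415_c0_g1 is lowest at S5, at -2.07.

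Between species, the 3 unigenes of the LB lists had lower means in LR than in LB at all 5 stages, apart from DN89415_c0_g1 at S2. The LB libraries in these comparisons are those on which the lists were chosen, so the differences are given as a description, without a test. The 95% intervals given with them rest on an SE pooled over all groups of the fit, not on the spread of the groups compared. They are not read as a test either, since the values that chose the unigenes enter them.

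TRINITY_DN70125_c0_g3 had its widest differences at S2, S3 and S4. LR and LB means were 1.79 ± 1.53 and 34 ± 9.10 FPKM at S2 (log2 difference -4.07, 95% interval -5.41 to -2.74), 1.18 ± 1.44 and 60 ± 8.32 FPKM at S3 (-5.56, -6.89 to -4.22), and 0.437 ± 0.380 and 46.3 ± 17.4 FPKM at S4 (-5.68, -7.01 to -4.34; SD, n = 3 each, SE 0.65). At S1 the means were 0.627 ± 0.544 FPKM in LR and 3.72 ± 1.31 FPKM in LB (log2 difference -2.01, 95% interval -3.35 to -0.68) and at S5 they were 1.53 ± 1.56 and 4.36 ± 1.39 FPKM (-1.63, -2.97 to -0.30). No LR library reached the lowest LB library at any of the 5 stages. Because LR values were so low, the size of these differences depends on the offset. At S4 the difference of TRINITY_DN70125_c0_g3, LR minus LB S4, was -6.85 with an offset of 0.1 and -5.01 with an offset of 1. With median-of-ratios scaling the differences were smaller at every stage, at -1.51, -3.56, -5.07, -5.17 and -1.21 from S1 to S5.

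For TRINITY_DN96146_c3_g3 the LR and LB libraries were apart from S2 to S5. LR and LB means were 1.79 ± 0.273 and 44.2 ± 8.99 FPKM at S2 (log2 difference -4.27, 95% interval -5.47 to -3.08), 3.18 ± 1.00 and 55.6 ± 3.14 FPKM at S3 (-3.96, -5.15 to -2.77), 2.14 ± 0.852 and 78.2 ± 8.41 FPKM at S4 (-4.95, -6.14 to -3.76), and 0.740 ± 0.557 and 23.8 ± 12.5 FPKM at S5 (-4.24, -5.43 to -3.05; SD, n = 3 each, SE 0.58). At S1 the groups overlapped through LB1-2, and the difference was -1.87 with LB1-2 and -2.91 without it. With median-of-ratios scaling the differences of all 30 libraries were -1.41, -3.74, -3.17, -4 and -3.79 from S1 to S5.

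TRINITY_DN89415_c0_g1 was at 8.07 ± 4.00 FPKM in LR and 32.4 ± 1.79 FPKM in LB at S5 (log2 difference -2.07, SE 0.41, 95% interval -2.92 to -1.22). From S1 to S4 the differences were -0.16, 0.32, -0.44 and -0.91, with 95% intervals that reached from -1.76 at S4 to 1.18 at S2. The sign of the differences at S1, S3 and S4 turned with median-of-ratios scaling, to 0.39, 0.36 and 0.06. The scaling moved the median difference of all unigenes, -0.25 to -0.49 as deposited, up by 0.25 to 0.49.

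The unigene of the LR list, TRINITY_DN68385_c5_g2, had its highest levels in young LR fruit. LR libraries held 9.43, 9.23 and 4.68 FPKM at S1, 0.16, 0.00 and 0.89 FPKM at S2, 0.00, 0.00 and 0.11 FPKM at S3, 0.00, 0.00 and 0.42 FPKM at S4, and 0.00, 0.13 and 0.00 FPKM at S5. Its S1 mean of 7.78 ± 2.69 FPKM was 22.2 times the S2 mean of 0.35 ± 0.474 FPKM (SD, n = 3 each), and no later LR library reached 1 FPKM. This LR course chose the unigene and carries no test.

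LB libraries held TRINITY_DN68385_c5_g2 at 0.11, 0.44 and 0.52 FPKM at S1 and at 0.37 FPKM in LB5-3, and the other 11 LB libraries were listed at 0. All LB values were thus below the filter level of 1 FPKM. No LB value exceeded 0.52 FPKM, about the size of the offset, and the unigene passed the filter only through LR, so no LB stage pair could be expected to pass the thresholds. None of the 10 did, and nothing is read from that. At S1 LR held 7.78 ± 2.69 FPKM and LB 0.357 ± 0.217 FPKM, a difference that partly rests on the libraries that chose the unigene and is given without a test.

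Across the 10 groups, the order of means for TRINITY_DN70125_c0_g3 was LB S3, S4, S2, S5 and S1 and then LR S2, S5, S3, S1 and S4, and the only neighbours without overlap were LB S2 and LB S5. TRINITY_DN96146_c3_g3 ran from LB S4 over S3, S2, S5 and S1 to LR S3, S4, S2, S1 and S5, with gaps between LB S4 and S3, LB S2 and S5, and LR S2 and S1. For TRINITY_DN89415_c0_g1 only LB S5 stood clear of the next group, LR S5, and the other 9 groups overlapped with their neighbours between 4.69 and 8.07 FPKM. For TRINITY_DN68385_c5_g2 only LR S1 stood clear of the next group, LB S1.

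Over the 30 libraries the Pearson r of log2(FPKM + 0.5) was 0.874 between DN70125_c0_g3 and DN96146_c3_g3, with 0.253 within the 15 LR libraries and 0.719 within the 15 LB libraries. All other pairs had an r between -0.446 and 0.209 over the 30 libraries. Within the 15 LR libraries their r ran from -0.469 to 0.099. Within the 15 LB libraries it ran from -0.719, for DN96146_c3_g3 with DN68385_c5_g2, to 0.147. DN68385_c5_g2 was listed at 0 in 11 of those LB libraries. These correlations describe libraries that share species and stage.

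A Trinity component groups assembled sequences with shared stretches, so reads can be split between its unigenes, and the other unigenes of the 4 components were measured beside the members. The components held 6, 5, 4 and 2 unigenes, of which 9 besides the members passed the filter. None of these 9 was on the zeatin or hormone lists that could be read. The calls of these 9 went both ways: 13 of their 45 LR with LB comparisons were called, 5 higher and 8 lower in LR, and 7 of 90 LR and 25 of 90 LB stage pairs. Over all tested unigenes, 10.3%, 11.2%, 10.5%, 8.72% and 12.2% were called higher in LR from S1 to S5 and 20.6%, 19.6%, 21.5%, 24.5% and 21% lower, the LR pairs had the shares of 0.0548% to 11% given above, and the share called in LB was 6.31% for S2 against S1, 17.5% for S3 against S1, 17.2% for S4 against S1, 14.5% for S5 against S1, 5.28% for S3 against S2, 6.85% for S4 against S2, 9.38% for S5 against S2, 0.27% for S4 against S3, 4.9% for S5 against S3 and 1.22% for S5 against S4. The counts between species were near these shares, and nothing is read from the counts of the component unigenes. Of the called values given next, some were not called in a fit of the 6 libraries compared alone: DN70125_c0_g1 in LB at S3 against S2 (adjusted p = 0.019) and between species at S3 (0.039), DN96146_c3_g5 in LB at S4 against S1 (0.046) and between species at S3 (0.01), DN89415_c0_g4 between species at S5 (0.044), and DN68385_c5_g1 in LB at S5 against S4 (0.16) and between species at S3 (0.016), all by limma.

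**Figure D3:**
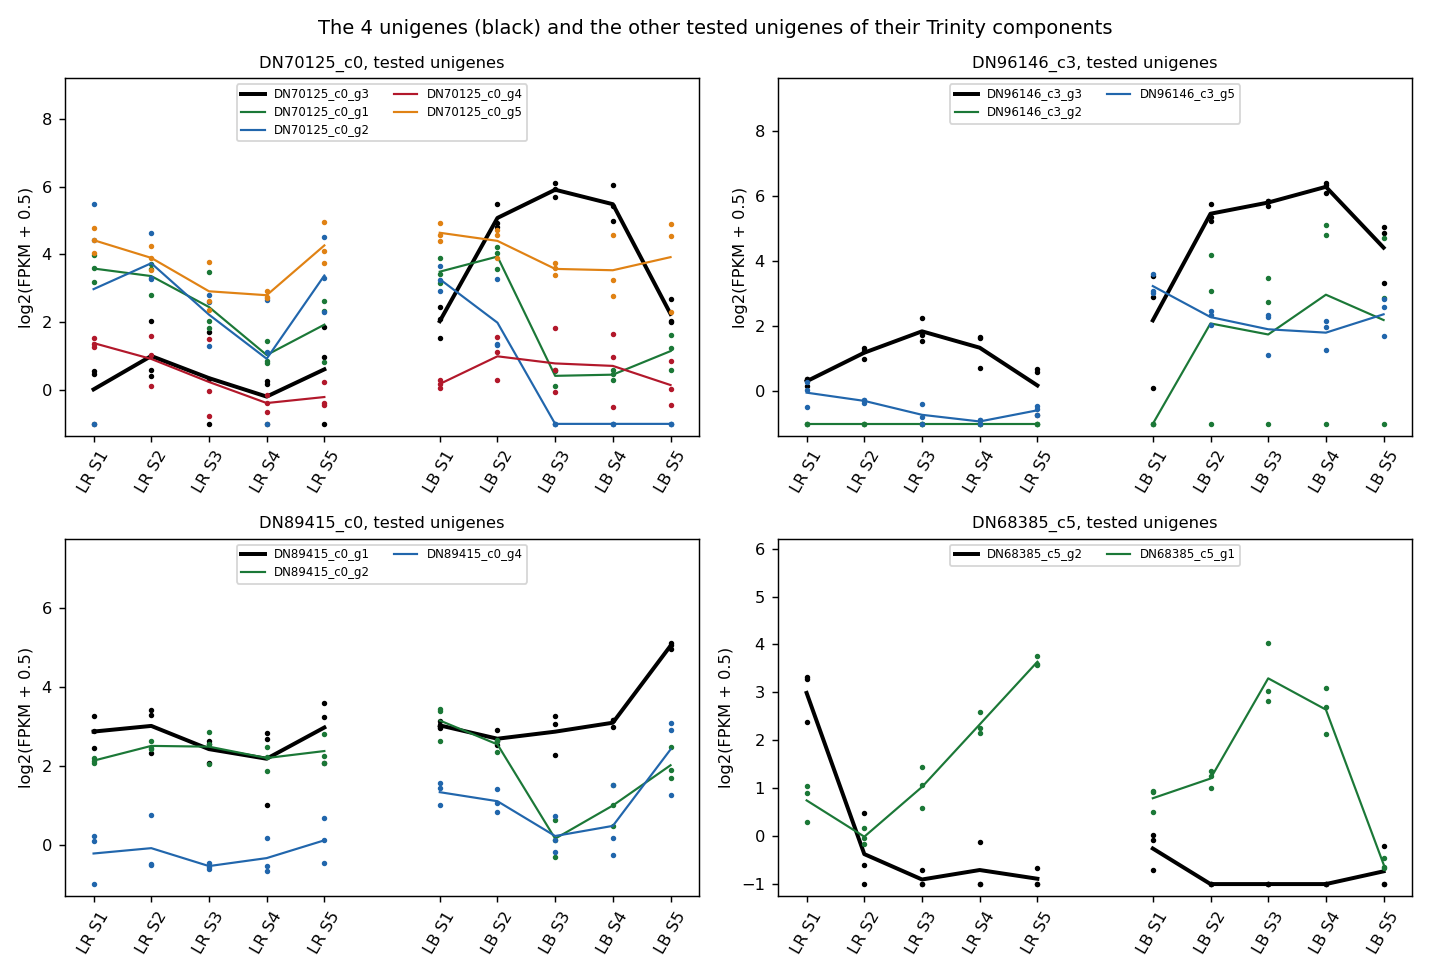
log2(FPKM + 0.5) of the 4 unigenes (black) and of the other tested unigenes of their Trinity components, by species (LR left, LB right) and stage; lines join the means of 3 libraries and points are libraries, with a value of -1 where a library was listed at 0. In the DN70125_c0 panel the LB line of g3 climbs while those of g1 and g2 drop after S2, and in the DN68385_c5 panel g1 is highest in LR at S5, where g2 is near its floor.

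In the component of the zeatin unigene, g3 made up a median of 4.62% of the summed FPKM in LR and 79.8% in LB at S3. DN70125_c0_g5 ran from 4.64 to 30.8 FPKM in the 15 LR libraries and from 4.46 to 30.24 FPKM in the 15 LB libraries, and was called at no stage between species. DN70125_c0_g1 fell in LB by S3, where g3 had its highest mean, with 0.99, 0.98 and 0.58 FPKM at S3 against 15.97, 18.04 and 11.27 FPKM at S2 (log2 difference -3.52, SE 0.43, adjusted p = 7.2e-06). In LR it held 3.64, 3.02 and 10.67 FPKM at S3, above the 0.99, 0.98 and 0.58 FPKM of LB (2.03, adjusted p = 0.00048). DN70125_c0_g2 was at 4.45, 9.39 and 22.47 FPKM in LR at S5 and listed at 0 in the 3 LB libraries (adjusted p = 0.0017, 0.013 without LR5-3), and at 0 in all 9 LB libraries from S3 on. DN70125_c0_g4 stayed at 3.02 FPKM or less in all 30 libraries. The component as a whole summed to 20.6 ± 12.2 FPKM in LR and 73.8 ± 8.07 FPKM in LB at S3, but to 57.8 ± 30.9 FPKM in LR and 49.5 ± 6.13 FPKM in LB at S1 (SD, n = 3 each).

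In the component of TRINITY_DN96146_c3_g3, DN96146_c3_g5 was lower in LR at all 5 stages, with 0.73, 0.54 and 0.22 FPKM in LR and 7.94, 11.79 and 7.62 FPKM in LB at S1 (log2 difference -3.28, adjusted p = 2.4e-08) and with 0.18, 0.10 and 0.23 FPKM in LR and 6.62, 2.73 and 5.52 FPKM in LB at S5 (-2.95, adjusted p = 1.2e-07). Unlike the member, its LB values were highest at S1, and it was lower at S4 (3.12 against 9.12 FPKM in means, log2 difference -1.43, adjusted p = 0.0024). That call was also lost without LB1-2 (0.019), without LB4-3 (0.021), without LB4-3 and LB5-2 (0.011), with an offset of 0.1 (0.022) and with median-of-ratios scaling (0.011). DN96146_c3_g2 was listed at 0 in all 15 LR libraries and in 7 of 15 LB libraries, and reached 34.1 FPKM in LB4-2, where LB4-1 was at 0. Such jumps between libraries of a group were larger than those of the member, which stood at 84.28 and 68.60 FPKM in LB4-2 and LB4-1.

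The component of TRINITY_DN89415_c0_g1 held a second unigene with its highest LB mean at S5. DN89415_c0_g4 stood at 0.58, 1.09 and 0.23 FPKM in LR and at 7.02, 1.87 and 7.95 FPKM in LB at S5 (log2 difference -2.30, SE 0.49, adjusted p = 0.00048), as the member did at 11.54, 8.98 and 3.69 FPKM in LR and 30.38, 33.78 and 33.03 FPKM in LB. DN89415_c0_g2 went another way. It was at 3.65, 5.31 and 6.73 FPKM in LR and 0.31, 1.05 and 0.59 FPKM in LB at S3 (2.33, adjusted p = 1.8e-06), and in LB it fell to that level against 9.93, 5.64 and 10.3 FPKM at S1 (-2.99, adjusted p = 1.2e-07). At S5 its LB values were back at 3.18, 5.01 and 2.73 FPKM.

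TRINITY_DN68385_c5_g1, the other unigene in the component of the LR-listed member, was detected in all 30 libraries. In LR it held 1.58, 1.36 and 0.72 FPKM at S1, 0.48, 0.39 and 0.62 FPKM at S2, 1.59, 1.00 and 2.2 FPKM at S3, 3.95, 4.26 and 5.52 FPKM at S4 and 11.34, 11.55 and 13.06 FPKM at S5. In LB it held 0.92, 1.40 and 1.42 FPKM at S1, 2.07, 1.5 and 1.87 FPKM at S2, 7.65, 15.76 and 6.61 FPKM at S3, 5.96, 8.06 and 3.88 FPKM at S4 and 0.13, 0.14 and 0.23 FPKM at S5. The LR values were thus highest in mature fruit, where the LB values were lowest. It rose in LR by S5 against S1 (log2 difference 2.89, SE 0.31, adjusted p = 3.5e-07) and fell in LB by S5 against S4 (-3.23, adjusted p = 7.9e-07). LR exceeded LB at S5 (4.23, adjusted p = 5.2e-11) and was below LB at S3 (-2.27, adjusted p = 1.9e-06). The LR change by S5 against S1 exceeded the LB change by 4.27 (SE 0.44, adjusted p = 3.4e-07, limma interaction contrast), a contrast called higher for 3.05% of all tested unigenes. In LR the member g2 had its highest values in young fruit, where g1 was at 1.58 FPKM or less, and stood at 0.13 FPKM or less in mature fruit, where g1 was highest.

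The other unigenes of the 2 pathways that could be read from the study's lists numbered 34 for zeatin biosynthesis, of which 33 passed the filter, and 31 for hormone signal transduction. The study chose these lists on the same libraries for change between stages, so their counts in the species they were chosen in are no independent evidence. Below, a unigene listed for LB or for LR was on the readable list of that species alone. Those counts leave out 1 zeatin and 2 hormone unigenes listed for both. Absence from a list also rests on that species' libraries, so counts in the species that had not chosen them are not wholly free of the choice. Among the 33 zeatin unigenes, LR fruit had 6 higher and 11 lower at S5 than at S1, where 2.97% and 5.39% of all tested unigenes were called higher and lower. LB fruit had 3 higher and 23 lower, where the shares were 5.56% and 8.98%. These 4 counts were the same with median-of-ratios scaling. The median log2 differences were -0.74 in LR and -2.17 in LB, against 0 over all tested unigenes in both. Of the 23 that were lower in LB, 15 were among the 16 listed for LB, which were chosen on these LB libraries. TRINITY_DN70125_c0_g3 overlapped between S5 and S1 in LB, with 4.36 ± 1.39 and 3.72 ± 1.31 FPKM (SD, n = 3 each), and nothing is read from its place beside that list.

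Counted only in the species that had not chosen them, 8 of 16 zeatin unigenes listed for LR alone fell in LB by S5 against S1 and 2 rose. Of 16 listed for LB alone, 2 fell in LR and 0 rose. Those with the largest falls ended near 0. TRINITY_DN93685_c1_g1 held 2.01, 0.23 and 0.38 FPKM at S5 against 92.4, 184.54 and 66.7 FPKM at S1 in LB (log2 difference -6.48, adjusted p = 2.4e-07), and TRINITY_DN79967_c0_g3 held 0.54, 0.00 and 0.00 FPKM against 35.66, 81.56 and 26.78 FPKM (-6.08, adjusted p = 3.4e-08). Both were high in LR S1 fruit too, at 74.18 to 251.08 FPKM and 36.81 to 63.28 FPKM. Among those that rose, TRINITY_DN80014_c0_g2 held 32.92, 25.33 and 27.88 FPKM at S5 against 4.33, 4.42 and 10.05 FPKM at S1 in LB (2.2, adjusted p = 0.00077). TRINITY_DN98117_c2_g1 held 5.05, 87.52 and 12.41 FPKM at S5 and was listed at 0 in the 3 LB libraries of S1 (adjusted p = 1.8e-05). In LR, TRINITY_DN98852_c0_g3 fell to 0.24, 0.17 and 1.06 FPKM at S5 against 3.60, 3.29 and 5.19 FPKM at S1 (-2.28, adjusted p = 0.00018), and TRINITY_DN66146_c0_g1 to 0.34, 0.05 and 0.29 FPKM against 3.39, 2.70 and 1.62 FPKM (-2.06, adjusted p = 0.00073). Both LR calls were lost in a fit of the 6 libraries compared alone (adjusted p = 0.047 and 0.038, limma). The LB calls of DN80014_c0_g2 (0.02) and DN98117_c2_g1 (0.037) were lost there too.

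Between species, 2 of the 33 zeatin unigenes were higher in LR and 9 lower at S1, where 10.3% and 20.6% of all tested unigenes were called. At S5 the count was 9 higher and 3 lower, where the shares were 12.2% and 21%. The choice of the lists enters these counts, since 15 of the 16 listed for LB fell in LB by S5 against S1. Of those 16, 0 were higher and 6 lower in LR at S1, and 4 were higher and 0 lower at S5. Of the 16 listed for LR, 2 were higher and 3 lower at S1, and 5 and 3 at S5. Nothing is read from these counts or from the scaled counts given next. Median-of-ratios scaling gave 3 higher and 5 lower at S1 and 11 higher and 2 lower at S5, and it gave 14 higher and 1 lower at S4 in place of 6 and 3. Over both lists and the 7 comparisons plotted, that scaling turned 65 higher and 125 lower calls into 97 and 94. The unigenes named next were picked for the largest called S5 differences of their list, and S5 libraries of the listing species helped to choose that list. Their adjusted p-values (limma) are therefore no independent evidence of a species difference. TRINITY_DN80014_c0_g3 held 9.62, 9.84 and 25.04 FPKM in LR and 0.00, 0.00 and 0.13 FPKM in LB at S5 (log2 difference 4.68, adjusted p = 1.8e-08). In the same component TRINITY_DN80014_c0_g2 had the opposite difference, at 1.62, 1.25 and 1.49 FPKM in LR and 32.92, 25.33 and 27.88 FPKM in LB (-3.90, adjusted p = 1.7e-07). TRINITY_DN98992_c4_g3 held 9.85, 10.05 and 24.3 FPKM in LR and 0.17, 0.00 and 0.00 FPKM in LB (4.66, adjusted p = 3.8e-07). TRINITY_DN96833_c2_g1 held 6.84, 7.33 and 39.97 FPKM in LR and 0.77, 1.11 and 1.13 FPKM in LB (3.15, adjusted p = 0.00013), and TRINITY_DN93336_c1_g2 held 3.44, 2.30 and 3.42 FPKM in LR and 1.01, 0.41 and 0.46 FPKM in LB (1.68, adjusted p = 0.00067). The call of DN96833_c2_g1 was lost in a fit of the 6 libraries compared alone (adjusted p = 0.031, limma). TRINITY_DN98117_c2_g1, at 1.97, 2.06 and 4.38 FPKM in LR and 5.05, 87.52 and 12.41 FPKM in LB, passed only narrowly (-2.56, adjusted p = 0.0098) and was not called without LB5-2 (-1.43, adjusted p = 0.12) or under most other settings.

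**Figure D4:**
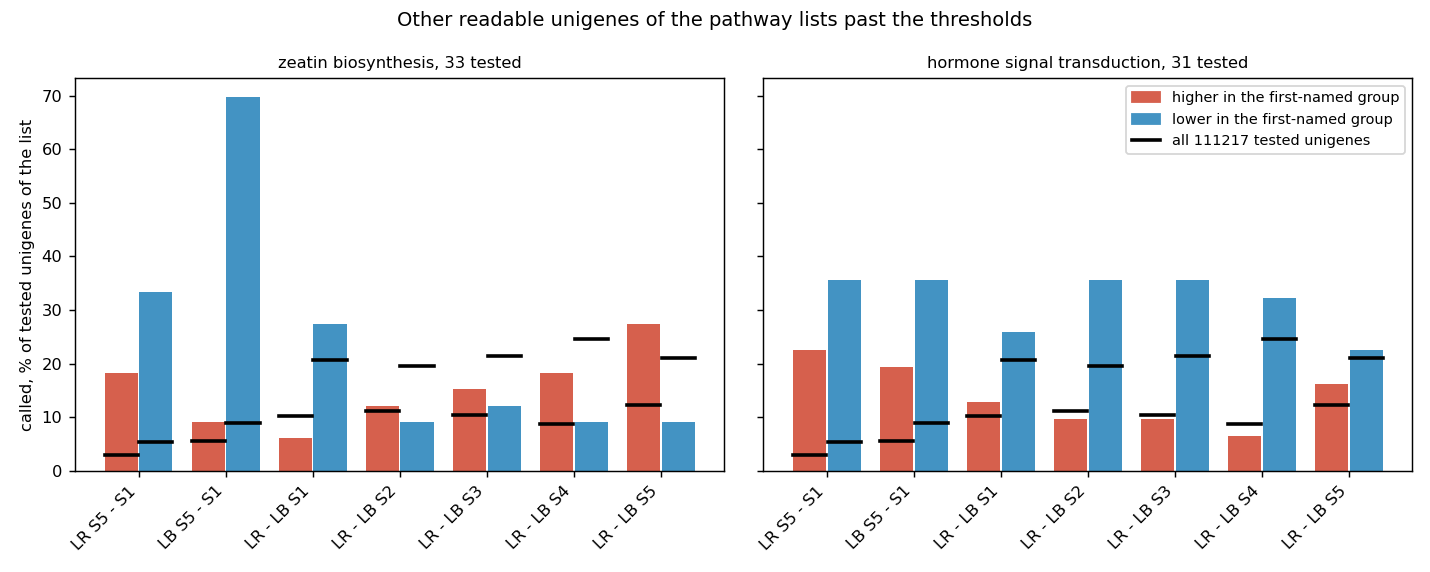
Share of the tested unigenes of each list, without the 4 members, that were called higher (red) or lower (blue) in the first-named group; black bars give the same share over all 111217 tested unigenes. In the zeatin panel 23 of 33 unigenes are lower at LB S5 than at LB S1, and in the hormone panel 11 of 31 are lower in LR than in LB at S2 and at S3, counts that were 5 and 5 with median-of-ratios scaling.

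Of the 31 hormone signal transduction unigenes other than the members, 7 were higher and 11 lower at S5 than at S1 in LR, and 6 were higher and 11 lower in LB. Over all tested unigenes 2.97% were higher and 5.39% lower in LR and 5.56% and 8.98% in LB, and with median-of-ratios scaling the counts of the list were 8 and 11 in LR and 9 and 11 in LB. In the species that had not chosen them, 2 of 14 listed for LB alone rose and 1 fell in LR by S5 against S1. Of 15 listed for LR alone, 2 rose and 5 fell in LB. The 2 listed for both species fell in LR and in LB. In LR, TRINITY_DN67774_c3_g1 held 60.87, 42.09 and 58.84 FPKM at S5 against 7.09, 6.55 and 8.82 FPKM at S1 (log2 difference 2.76, adjusted p = 1.4e-05). TRINITY_DN87664_c0_g1 held 31.72, 30.36 and 28.14 FPKM against 11.15, 13.37 and 12.29 FPKM (1.26, adjusted p = 0.0027, and up to 0.015 without LR1-1, LR5-1 or LR5-2), and TRINITY_DN78430_c3_g4 fell to 0.05, 0.11 and 0.11 FPKM against 2.42, 2.40 and 1.94 FPKM (-2.22, adjusted p = 2.6e-07). In LB, TRINITY_DN74682_c2_g3 held 28.33, 23.84 and 35.46 FPKM at S5 against 3.00, 2.89 and 4.34 FPKM at S1 (2.93, adjusted p = 2.3e-06), and TRINITY_DN96827_c1_g2 held 441.2, 251.8 and 402.63 FPKM against 85.11, 73.83 and 81.81 FPKM (2.14, adjusted p = 7.5e-05). TRINITY_DN78362_c0_g2 was listed at 0 in the 3 LB libraries of S5, against 25.38, 6.76 and 21.18 FPKM at S1 (adjusted p = 1.8e-07), and TRINITY_DN101133_c2_g3 fell to 11.86, 39.9 and 14.14 FPKM against 110.79, 108.63 and 113.86 FPKM (-2.52, adjusted p = 0.00041). A fit of the 6 libraries compared alone lost the calls of DN87664_c0_g1 (adjusted p = 0.013), DN78430_c3_g4 (0.011) and DN101133_c2_g3 (0.031), all by limma.

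Between species the hormone counts depended on the scaling. Of the 14 listed for LB, the list of DN96146_c3_g3 and DN89415_c0_g1, 5, 6, 5, 5 and 4 were lower in LR from S1 to S5 and 0, 0, 0, 0 and 1 higher, with median log2 differences of -0.56, -0.66, -1.02, -1.04 and -0.31, against -0.42, -0.33, -0.25, -0.49 and -0.26 over all tested unigenes. With median-of-ratios scaling 4, 1, 2, 2 and 2 were lower and 0, 0, 1, 0 and 2 higher, with medians from -0.29 to 0.05. The larger share of lower calls as deposited is therefore not read as a property of the list, whereas the calls of the unigenes named next stayed. LB libraries of S5 helped to choose this list, so the adjusted p-values that follow are no independent evidence of a species difference. TRINITY_DN81896_c3_g1 was the most abundant of those named, at 52.88, 29.83 and 24.96 FPKM in LR and 1016.87, 1003.49 and 970.78 FPKM in LB at S5 (-4.85, adjusted p = 1.6e-11), and its LB libraries had 196.7 to 306.55 FPKM at S1. TRINITY_DN87664_c0_g1 was at 31.72, 30.36 and 28.14 FPKM in LR and 113.64, 95.43 and 113.1 FPKM in LB (-1.82, adjusted p = 1e-05). Higher in LR was TRINITY_DN78494_c3_g1, at 17.96, 16.14 and 21.05 FPKM in LR and 0.40, 1.21 and 0.28 FPKM in LB (4.14, adjusted p = 2.5e-09).

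Of the 15 hormone unigenes listed for LR, 4 were higher and 2 lower in LR at S5, where 12.2% and 21% of all tested unigenes were called higher and lower, and nothing is read from the counts. LR libraries of S5 helped to choose this list, so the adjusted p-values that follow are no independent evidence of a species difference. TRINITY_DN75488_c0_g1 held 103.89, 86.33 and 76.89 FPKM in LR and 5.54, 3.94 and 3.61 FPKM in LB (log2 difference 4.21, adjusted p = 5e-07), and TRINITY_DN67828_c2_g2 held 129.75, 86.05 and 93.13 FPKM in LR and 28.77, 16.81 and 23.21 FPKM in LB (2.15, adjusted p = 0.00014). TRINITY_DN78283_c0_g1 was listed at 0 in the 3 LR libraries and at 2.83, 2.5 and 10.18 FPKM in LB (adjusted p = 1.9e-06, and 0.011 in a fit of the 6 libraries compared alone, limma). It also had 7.46, 3.14 and 4.43 FPKM in LR at S1 and at most 1.56 FPKM in later LR libraries, a course close to that of DN68385_c5_g2 in LR but not in LB, where it reached 8.79 FPKM at S2. TRINITY_DN94241_c2_g7 held 2.12, 1.25 and 1.87 FPKM in LR and 10.43, 16.57 and 7.87 FPKM in LB (-2.39, adjusted p = 1.5e-05).

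The unigenes most like each member over the 30 libraries were found by Pearson r of log2(FPKM + 0.5) among all tested, as a description of libraries that share species and stage. For TRINITY_DN70125_c0_g3 they were DN93825_c2_g2 (r = 0.939) and DN88876_c7_g1 (0.938), and 153 unigenes reached 0.9. DN93825_c2_g2 had group means of 1.56 to 2.28 FPKM in LR and its highest LB mean, 11.8 FPKM, at S3. DN88876_c7_g1 had means of 54.4 to 77.6 FPKM in LR and its highest LB mean, 205 FPKM, also at S3. Among the readable lists the closest were the ribosome unigenes DN81860_c2_g1 (r = 0.932, 225 FPKM in LB at S3) and DN88366_c2_g1 (0.910, 1360 FPKM in LB at S3). For TRINITY_DN96146_c3_g3 the closest were DN89578_c0_g1 (r = 0.970, with 0.834 within LR and 0.962 within LB) and DN58158_c0_g1 (0.952, listed at 0 in all 15 LR libraries), with 179 unigenes at 0.9 or more. DN89578_c0_g1 had LR means of 1.88, 3.36, 6.68, 4.07 and 1.85 FPKM and LB means of 5.35, 31.8, 36.8, 84.2 and 28.1 FPKM from S1 to S5, with its maxima at the same stages as the member in each species. In the lists DN66566_c5_g7 (0.927) and DN98829_c5_g2 (0.926) came closest, both under stilbenoid, diarylheptanoid and gingerol biosynthesis.

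TRINITY_DN89415_c0_g1 had 0 unigenes with an r of 0.9 or more. DN98009_c1_g1 (0.899) and DN88342_c3_g1 (0.893) came closest, and their r within the 15 LR libraries was 0.950 and 0.946, where the member was called at no stage. Their LB means stepped to 212 FPKM at S5 against 90.7 FPKM at S4 and to 77.4 FPKM against 31.6 FPKM. In the lists DN78035_c0_g1, under cyanoamino acid metabolism, reached 0.789 and DN91238_c0_g1, under steroid biosynthesis, 0.749. For TRINITY_DN68385_c5_g2, DN81167_c4_g3 and DN67287_c1_g1 both reached 0.956, and 51 unigenes 0.9 or more. DN67287_c1_g1 had a mean of 23.2 FPKM in LR and 1.13 FPKM in LB at S1 and at most 1.15 FPKM in any later group. In the lists the closest were DN66418_c4_g2 (0.909), under isoquinoline alkaloid biosynthesis and tyrosine metabolism, with 107 FPKM in LR and 0.780 FPKM in LB at S1, and DN69092_c2_g1 (0.908), under fatty acid elongation and plant-pathogen interaction, with 2.84 FPKM in LR and 0.180 FPKM in LB. None of the 2 closest unigenes of any member was on a readable zeatin or hormone list.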

How the data were processed

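The authors filtered reads with Cutadapt, assembled transcripts de novo with Trinity, clustered them with Corset and deposited a table of FPKM, to 2 decimals, computed from reads with a single location, on 1 set of unigenes for both species. The submitters' processing notes name Bowtie2; versions of Trinity, Corset and Bowtie2 and any scaling between libraries of this FPKM table are not given in the sources used here. Depth per unigene is not in the table, so counting errors were not computed.

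A limma 3.58.1 model (R 4.3.3, robust empirical Bayes with a mean-variance trend) was fitted to log2(FPKM + 0.5) of these deposited values, with 1 mean for each of 10 groups over 30 libraries and 20 residual degrees of freedom, for unigenes at 1 FPKM or more in at least 3 libraries. Within each comparison the two-sided p-values of all 111217 tested unigenes received a Benjamini-Hochberg adjustment. Calls required 2-fold and an adjusted value under 0.01. The p-values of the members between species and of DN68385_c5_g2 between LB stages are not given, since the values that chose or admitted a member enter them. Those of the list unigenes between species are given, but libraries that chose each list enter them, so they are no independent evidence. The fit was also run on simulated data, with changes added only to unigenes above the median level. That run does not cover levels near 0, such as those of some members. Comparisons were the 10 stage pairs of each species (later minus earlier), LR minus LB at each of 5 stages, and the LR change minus the LB change by S5 against S1. Named besides the members were their tested component unigenes, the 2 unigenes of all tested and the 2 of the readable lists with the highest r to each, and per list up to 2 called unigenes per direction with the largest change without overlap, for S5 against S1 in the species that had not chosen the list and for LR minus LB at S5. The members and lists were chosen with earlier results of these data known. Lists hold only the names that could be read. Replicates within a group are separate trees, and the shrub behind each library is not stated in those sources. The paper sampled fewer shrubs of each species than libraries were made, so some shrubs must have given fruit at more than 1 stage. The p-values of the stage pairs take no account of shared shrubs. Alternatives are listed in the closing section.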

Additional observations from a re-analysis of the deposited data

Results flagged for a closer look

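TRINITY_DN68385_c5_g1, the other unigene in the component of the LR-listed hormone unigene, moved in opposite directions in the 2 species. By S5 against S1 it changed by 2.89 in LR and by -1.38 in LB on the log2(FPKM + 0.5) scale, and the LR change exceeded the LB change by 4.27 (SE 0.44, 95% interval 3.37 to 5.18, adjusted p = 3.4e-07 by the limma interaction contrast). All 3 LR libraries of S5 lay above those of S1 and all 3 LB libraries of S5 lay below those of S1. The same contrast was called higher for 3.05% of all tested unigenes, and for 0 of the other 8 component unigenes. The difference stayed between 3.50 and 5.59 under 9 other settings and between 4.04 and 4.43 when each of the 30 libraries was left out. The LB change alone was not called with an offset of 1 (-0.94), with median-of-ratios scaling (-1.10) or in a fit of the 6 libraries alone (-1.38). No group had the 4 libraries needed to look for a library far from the rest of its group.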

How the results depend on the processing

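The 0 of 30 calls among LR stage pairs, the component calls and the list calls were recomputed with an offset of 0.1 or 1, without the low-value filter, with the libraries compared alone, with median-of-ratios scaling, with library quality weights, with a replicate block, without LB4-3 and LB5-2, without LR3-1 and LR4-3 (chosen after seeing the data, for their low scale factors), and without each library in turn. The count of 0 stayed at 0 throughout. Component calls, 45 in all, became 18 with the libraries compared alone and 42 to 52 without each library, and calls of the 2 lists over S5 against S1 and the 5 stages between species, 190 in all, became 92 and 179 to 197. Library quality weights gave the most calls, 62 for the components and 216 for the lists. In the fit of the libraries compared alone 10 of the 26 named list values were no longer called. No called value changed sign. With median-of-ratios scaling the list calls were 97 higher and 94 lower in place of 65 and 125, and component calls 17 and 24 in place of 16 and 29. Same-numbered libraries were not shown to be paired: in 0 of 25 comparisons did all 3 same-numbered pairs correlate above 0.1 (r from -0.102 to 0.229), and in 6 each library was closest to its own number. These 6 were S2, S3 and S4 against S1, S5 against S3 and S5 against S4 in LR, and S5 against S3 in LB. A weak pairing within LR therefore stays possible. In both species some shrubs must have served more than 1 stage, and sharing across different numbers could not be traced. The replicate block gave 0 of 30 calls among LR stage pairs, 46 component calls and 194 list calls. It takes the same shift for a number in both species, so a pairing within LR alone was not tested. By Spearman's rho the closest unigene stayed the same for DN96146_c3_g3 (0.965) and DN89415_c0_g1 (0.911), and changed for DN70125_c0_g3 and DN68385_c5_g2. Values under about 1 FPKM limit what could be seen of DN70125_c0_g3 in LR and of DN68385_c5_g2 in LB.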
